A study of Mus musculus with 6 samples.

Results

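The genes of the matrix metalloproteinases (MMPs), the ADAMTS proteases and the tissue inhibitors of metalloproteinases (TIMPs) were examined in RNA-seq of mouse CT26 tumors. They were chosen by gene symbol, as the protein-coding genes named Mmp, Adamts or Timp with a number, with earlier results of these data known. This gave 43 of the 32110 genes in the files, made up of 21 MMP genes, 18 ADAMTS genes and 4 TIMP genes. Mmp1a, Mmp7 and Adamts13 were not analysed here.

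CT26 is a colon carcinoma cell line of BALB/c mice. Cells were placed in the skin of the right flank of male wild-type Balb/c animals. The 3 untreated libraries came from tumors with no treatment. The 3 iRFA libraries came from tumors treated by incomplete radiofrequency ablation (iRFA), taken 3 days later. In that treatment an electrode heated the middle of the tumor to 70 °C for 1.5 to 2.0 min, once its diameter was about 0.8 cm, so that only part of it became necrotic. Both groups therefore share 1 cell line, 1 strain and 1 injection site, and no library comes from heated normal tissue. The sources do not say how many mice each library represents, so the p-values measure the spread between these libraries, which may be technical.

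MMPs are zinc proteases that cleave collagens, gelatin, proteoglycans and other proteins of the extracellular matrix. Most are secreted as inactive proenzymes and are activated outside the cell by plasmin or by other MMPs, while the membrane-type MMPs are activated by furin inside the cell. ADAMTS proteases carry thrombospondin motifs that hold them in the matrix, where they trim procollagens and proteoglycans such as versican. TIMPs bind the active site of these proteases, and Timp3 is the member that stays bound to the matrix and that blocks several ADAMTS proteases. In tumors these genes are expressed largely by fibroblasts and by infiltrating myeloid cells as well as by cancer cells.

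The values are FPKM (sequenced fragments of a gene relative to its length and to all mapped fragments of the library), which correct for gene length, so levels may be compared between genes. No read counts are given and the depth of each library is unknown, but low values place the libraries within a relative depth of 1.00 to 1.10. The libraries did not fall into their labelled groups. Over the 15560 genes whose mean reached 0.5 FPKM, untreated replicates 1 and 2 correlated at 0.983 on the log2(FPKM + 1) scale, but at 0.807 and 0.801 with the library labelled untreated replicate 3. That library correlated at 0.983 to 0.987 with the iRFA libraries. Summed levels of several lists of cell markers divided the libraries the same way. The summed level of 8 fibroblast markers was 2565 and 3057 FPKM in untreated replicates 1 and 2 and 202 to 415 FPKM in the other 4 libraries. Type I collagen (Col1a1 and Col1a2) made up most of it, and 6 of the 8 were high in untreated replicates 1 and 2. The exceptions were Dcn, at 61.5 to 96.3 FPKM over all libraries, and Pdgfra, which was lower there (13.9 and 16.5 FPKM) than in the other 4 libraries (at most 22.2 FPKM). The sum of 8 macrophage markers was 1383 and 1374 FPKM against 2783 to 3441 FPKM. Of 8 simple epithelial markers, Krt8, Krt18, Krt19 and Epcam were abundant in untreated replicates 1 and 2 alone, with the list at 721 and 677 FPKM there and at 1.69 to 3.33 FPKM in the other 4 libraries. The intestinal factor Cdx2 was listed at 0 in 5 of the 6 libraries. Fold changes are therefore given with all libraries, without untreated replicate 3, and without untreated replicates 1 and 2. These comparisons share the iRFA libraries.

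Mmp2, Mmp9, Mmp14 and the 3 abundant TIMPs made up most of the transcripts of these families, and which protease led differed between untreated replicates 1 and 2 and the other 4 libraries. Mmp9, Mmp16 and Adamts14 were far lower in untreated replicates 1 and 2 than in any other library, and Timp3, Timp1, Adamts9, Adamts2, Mmp13 and Mmp23 were far higher. Untreated replicate 3 lay with the iRFA libraries for most of these genes. Mmp12 and Mmp16 were the tested genes of the 3 families with all 3 iRFA values above all 3 untreated values, and Mmp14 and Adamts10 those with all iRFA values below.

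Of the 43 genes, 28 reached a mean of 0.5 FPKM and entered the limma test, namely 13 MMP, 12 ADAMTS and 3 TIMP genes. With all 6 libraries, 0 of them were called higher and 0 lower after iRFA at an adjusted p under 0.05, in a table in which 0% of all tested genes were called in either direction. At an unadjusted p under 0.05, limma gave 2 higher (Mmp12 and Mmp16) and 1 lower (Adamts10), where 7.94% and 6.75% of all tested genes were higher and lower. The 2 genes that did not overlap on the higher side and the 2 on the lower side stand beside 11.4% and 10.5% of all tested genes. The median log2 fold change of the 28 genes was -0.52, with 21 negative and 7 positive values, and that of all tested genes was 0.02.

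Without untreated replicate 3, 5 of the 28 genes were called higher (Adamts14, Mmp12, Mmp16, Mmp9 and Timp2) and 20 lower. Mmp15, Adamts1 and Adamts6 were not called. In that comparison 33.9% of all tested genes were called higher and 30.3% lower. Without untreated replicates 1 and 2, where the 1 untreated library left has no spread of its own and takes that of the iRFA libraries, 0 of the 28 genes were called and 0.00643% of all tested genes were. Limma then gave 2 of them higher and 1 lower at an unadjusted p under 0.05, where 3.3% and 3.48% of all tested genes were higher and lower. In 20 of the 28 genes untreated replicates 1 and 2 were both above the other 4 libraries, a pattern held by 34.6% of all tested genes, and in 5 genes both were below, against 39.5%. The value of untreated replicate 3 lay within the range of the iRFA libraries in 12 of the 28 genes and in 45.7% of all tested genes.

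**Figure D1:**
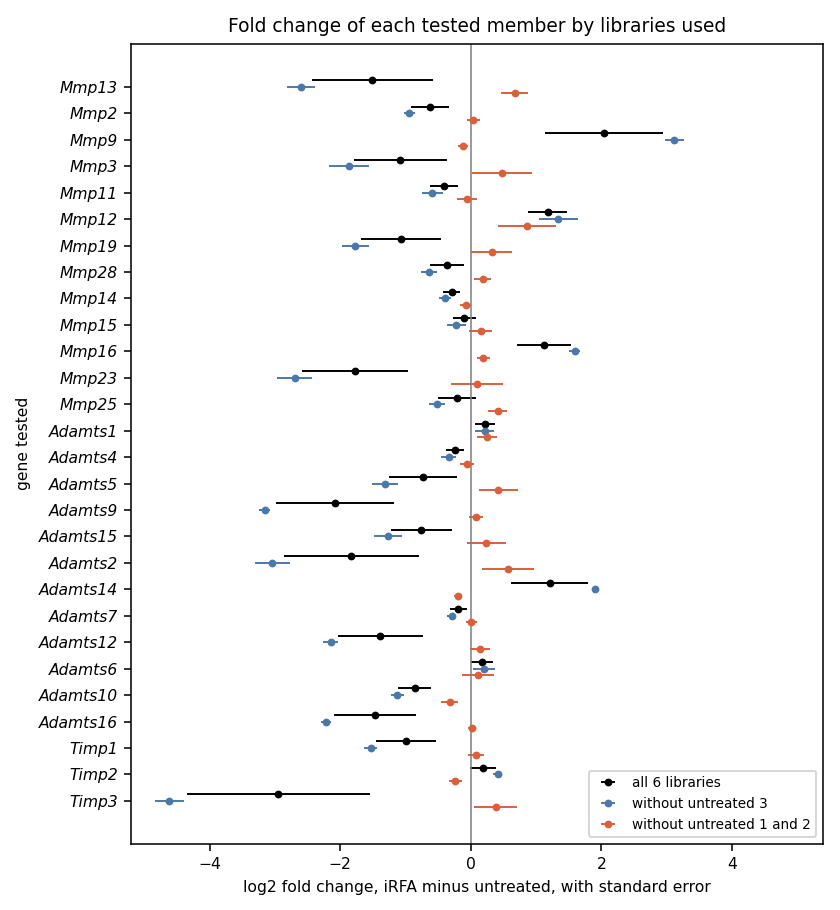
Log2 fold change of each of the 28 tested genes, iRFA minus untreated on the log2(FPKM + 1) scale, with its standard error from limma. Black points use all 6 libraries, blue points leave out untreated replicate 3 and orange points leave out untreated replicates 1 and 2; the orange points lie near 0 for most genes whose blue points lie far from it, as for Timp3 (-4.62 and 0.38).

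At 1 FPKM or more, 28, 29 and 22 of the 43 genes were expressed in untreated replicates 1 to 3, and 24, 24 and 26 in iRFA replicates 1 to 3. Untreated replicates 1 and 2 therefore expressed more of the genes than any other library. The ADAMTS genes account for 13 of them in each of untreated replicates 1 and 2 and for 10 in each of the other 4 libraries, and the same 3 TIMP genes reached this level in every library. The 15 genes that were not tested stayed at or under 1.21 FPKM, and 12 genes were under 1 FPKM in every library. These include Mmp20, the enamel protease of developing teeth, Mmp21, Mmp1b and Mmp8, the collagenase of neutrophils, which was at 0.0235 to 0.570 FPKM. Neutrophil markers were low as well, summing to 5.20 to 20.7 FPKM over the 7 found in the files.

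**Figure D2:**
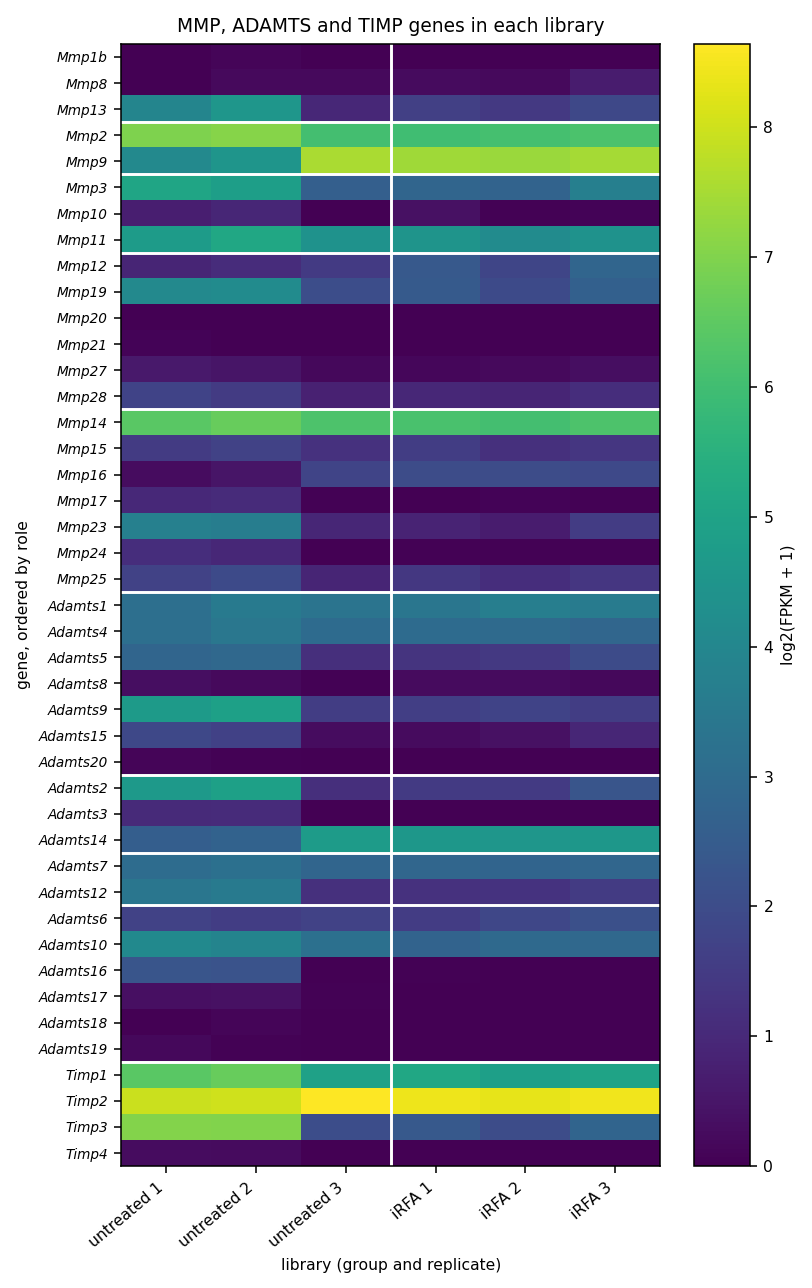
Level of all 43 genes in each library as log2(FPKM + 1), from dark (0) to yellow, with the genes ordered by role and white lines between the roles and between the untreated and iRFA libraries. The columns of untreated replicates 1 and 2 are alike and differ from the other 4 columns, most visibly in the rows of Mmp9, Adamts9, Adamts2 and Timp3.

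Collagenases cut the triple helix of fibrillar collagen, and Mmp13 (chromosome 9, 7272514 to 7283331, GRCm38) is the main one of mouse tissue. This gene was at 14.4, 22.4 and 0.967 FPKM in untreated replicates 1 to 3 and at 2.13, 1.72 and 2.64 FPKM in iRFA replicates 1 to 3. Untreated replicates 1 and 2 were high, and untreated replicate 3 was below all iRFA libraries, so the groups overlapped. Its log2 fold change was -1.51 (standard error, SE, 0.93, limma adjusted p = 0.299). It was -2.60 (limma adjusted p = 2.1e-04) without untreated replicate 3 and 0.67 without untreated replicates 1 and 2. Its substrate type I collagen (Col1a1) itself stood at 1484 and 1787 FPKM in untreated replicates 1 and 2 and at 61.6 to 161 FPKM in the other 4 libraries.

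The gelatinases Mmp2 and Mmp9, which digest denatured collagen and the type IV collagen of basement membranes, differed between libraries in opposite directions. Mmp2 (chromosome 8, 92827291 to 92853420), typically a product of fibroblasts, was at 124, 134 and 65.1 FPKM in untreated replicates 1 to 3 and at 62.4, 66.6 and 71.6 FPKM in iRFA replicates 1 to 3. Mmp9 (chromosome 2, 164940780 to 164955850), typically a product of myeloid cells, was at 15.8, 21.9 and 185 FPKM in untreated replicates 1 to 3 and at 170.3, 162 and 178 FPKM in iRFA replicates 1 to 3. In both genes the value of untreated replicate 3 was close to the iRFA values and far from the other untreated values. For Mmp9 the log2 fold change was 2.04 (SE 0.91, limma adjusted p = 0.25). It was 3.12 (limma adjusted p = 2.9e-05) without untreated replicate 3 and -0.12 without untreated replicates 1 and 2. For Mmp2 it was -0.62 (SE 0.29, limma adjusted p = 0.25) with all libraries, -0.94 (limma adjusted p = 2.2e-04) and 0.04 in the same order. The macrophage markers above moved with Mmp9, and 6 of the 8 fibroblast markers moved with Mmp2. The sum of the neutrophil markers went the other way from Mmp9. It was 14.3 and 20.7 FPKM in untreated replicates 1 and 2 and 5.20 to 9.43 FPKM elsewhere. The part of these cells in the result was not tested. In bulk tumors, fewer cells of a type and less RNA per cell cannot be told apart.

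Stromelysins act on proteoglycans and fibronectin and activate other proenzymes. Mmp3 (stromelysin 1) was at 32.8, 27.7 and 5.09 FPKM in untreated replicates 1 to 3 and at 6.04, 5.66 and 12.2 FPKM in iRFA replicates 1 to 3, with untreated replicate 3 the lowest of all. Mmp10 (stromelysin 2), which was too low to be tested, stood at 0.670 and 0.909 FPKM in untreated replicates 1 and 2, was listed at 0 in untreated replicate 3 and was at 0.301, 0.0304 and 0.0682 FPKM in iRFA replicates 1 to 3. Mmp11 (stromelysin 3), which furin activates inside the cell and which is typical of tumor stroma, was at 25.5, 34.6 and 20.2 FPKM in untreated replicates 1 to 3 and at 21.2, 16.9 and 20.3 FPKM in iRFA replicates 1 to 3. The groups overlapped in all 3 genes, and Mmp11 varied least. For Mmp3 the log2 fold change was -1.08 (SE 0.71, limma adjusted p = 0.318), -1.87 (limma adjusted p = 0.0035) without untreated replicate 3 and 0.48 without untreated replicates 1 and 2. That of Mmp11 was -0.41 (SE 0.21, limma adjusted p = 0.254), -0.59 (limma adjusted p = 0.0193) and -0.06 in the same order. Mmp11 shares 155 exon bases with Chchd10 on the other strand, which stood at 61.5 and 63.7 FPKM in untreated replicates 1 and 2 and at 0.882 to 1.93 FPKM elsewhere, and whether the counting used strand is not given in the sources used here.

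Mmp12, the metalloelastase of macrophages (chromosome 9, 7344381 to 7369499), was at 0.874, 1.16 and 1.80 FPKM in untreated replicates 1 to 3 and at 4.35, 2.49 and 6.09 FPKM in iRFA replicates 1 to 3. All iRFA values were above all untreated values, and of the latter untreated replicate 3 was the highest. The untreated mean was 1.28 ± 0.474 FPKM and the iRFA mean 4.31 ± 1.80 FPKM (SD, n = 3 each). The log2 fold change was 1.18 (SE 0.30, limma adjusted p = 0.25). It was 1.34 (limma adjusted p = 0.0103) without untreated replicate 3 and 0.86 (SE 0.44) without untreated replicates 1 and 2. Because the groups did not overlap, leaving libraries out could not change its sign. For each of the 8 macrophage markers, too, the lowest iRFA value was above the highest untreated one, as in 11.4% of all tested genes. Without untreated replicates 1 and 2 the log2 fold changes of these markers ran from 0.14 (Cd68) to 0.30 (Itgam). Their part in the Mmp12 result was not tested.

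Mmp19, a secreted protease of basement membrane proteins, was at 15.8, 16.9 and 3.09 FPKM in untreated replicates 1 to 3 and at 4.43, 2.87 and 5.29 FPKM in iRFA replicates 1 to 3. Mmp28 (epilysin), which is found in skin and other epithelia, was at 2.37, 1.81 and 0.753 FPKM and at 0.943, 0.842 and 1.18 FPKM in the same order. Both were high in untreated replicates 1 and 2 alone, and their groups overlapped. For Mmp19 the log2 fold change was -1.07 (SE 0.61, limma adjusted p = 0.275) with all libraries, -1.77 (limma adjusted p = 8.4e-04) without untreated replicate 3 and 0.32 without untreated replicates 1 and 2. Mmp19 shares 789 exon bases with Tmem198b on the other strand, which was at 7.86 to 8.86 FPKM in every library. Mmp28 shares 466 exon bases with 1700020L24Rik on the other strand. That gene was at 1.97, 1.30 and 0.858 FPKM in untreated replicates 1 to 3 and at 0.950, 0.511 and 0.969 FPKM in iRFA replicates 1 to 3. Whether the 2 genes share reads was not tested. Keratinocyte markers summed to 68.8 and 271 FPKM in untreated replicates 1 and 2 and to 1.85 to 3.89 FPKM elsewhere. Krt14 alone made up 65.2 FPKM of the sum in untreated replicate 1. There Krt5 (0.875 FPKM) and Krt10 (1.48 FPKM) lay within the range of untreated replicate 3 and the iRFA libraries, whereas Lor (1.18 FPKM) lay above it. The part of these markers in the Mmp28 values was not tested.

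The secreted MMP genes just described include a cluster. Mmp13, Mmp12, Mmp1b, Mmp3, Mmp10, Mmp8, Mmp27 and Mmp20, in this order, lie within 402 kb of chromosome 9 (7272514 to 7674979, GRCm38). The promoter sequences of 29 of the 43 genes were found in RefSeq (GRCm38.p6) as windows from 250 bases before to 50 after a transcript start. TGAGTCA, the site bound by AP-1 (the factor made of Jun and Fos proteins), was searched on both strands. It was present in 5 of the 31 windows (16.1%) and in 5.2% of the 32851 windows of all genes. The 5 windows belong to Mmp3, Mmp10, Mmp12, Mmp13 and Mmp1b, all in the cluster. Windows of the 4 genes other than Mmp1b are printed 5′ to 3′, because neighbouring genes with the same letters near their start had unlike levels. Capitals mark TGAGTCA, or TGACTCA where it lies on the other strand, which begins 35 bases before the start in Mmp13, 44 in Mmp12, 46 in Mmp3 and 63 in Mmp10.
Mmp13, chr9:7272264-7272563, plus strand: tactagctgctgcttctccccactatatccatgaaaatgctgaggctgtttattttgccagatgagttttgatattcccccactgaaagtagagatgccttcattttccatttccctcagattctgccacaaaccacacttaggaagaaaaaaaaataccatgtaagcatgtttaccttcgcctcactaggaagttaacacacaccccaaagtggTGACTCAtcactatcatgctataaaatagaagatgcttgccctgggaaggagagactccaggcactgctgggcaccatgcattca
Mmp12, chr9:7347124-7347423, plus strand: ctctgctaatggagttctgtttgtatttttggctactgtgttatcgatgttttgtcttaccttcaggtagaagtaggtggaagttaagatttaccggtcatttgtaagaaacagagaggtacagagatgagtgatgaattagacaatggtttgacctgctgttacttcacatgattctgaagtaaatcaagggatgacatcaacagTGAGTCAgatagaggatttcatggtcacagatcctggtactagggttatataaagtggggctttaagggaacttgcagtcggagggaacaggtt
Mmp3, chr9:7445572-7445871, plus strand: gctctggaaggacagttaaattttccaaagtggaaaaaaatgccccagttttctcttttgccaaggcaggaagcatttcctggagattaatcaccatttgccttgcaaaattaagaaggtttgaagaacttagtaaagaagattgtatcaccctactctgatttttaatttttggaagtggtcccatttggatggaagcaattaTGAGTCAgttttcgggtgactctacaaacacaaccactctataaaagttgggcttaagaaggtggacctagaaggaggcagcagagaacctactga
Mmp10, chr9:7502092-7502391, plus strand: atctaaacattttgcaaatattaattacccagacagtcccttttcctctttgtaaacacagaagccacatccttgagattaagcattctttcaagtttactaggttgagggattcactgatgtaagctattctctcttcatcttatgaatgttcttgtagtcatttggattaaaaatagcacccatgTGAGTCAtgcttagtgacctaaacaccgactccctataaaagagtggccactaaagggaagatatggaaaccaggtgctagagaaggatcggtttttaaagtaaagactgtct
The window of Mmp12 is that of 1 of its 2 starts in RefSeq, and the other holds no match. Mmp13, Mmp3 and Mmp10 were highest in untreated replicates 1 and 2, whereas Mmp12 was lowest there and Mmp1b was at most at 0.0785 FPKM. A match is a run of letters and not evidence of binding.

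Membrane-bound MMPs cut matrix at the cell surface. Mmp14 (chromosome 14, 54431612 to 54445364), which activates Mmp2 together with Timp2, was at 85.2, 99.1 and 74.0 FPKM in untreated replicates 1 to 3 and at 70.8, 65.9 and 73.3 FPKM in iRFA replicates 1 to 3. All untreated values were above all iRFA values, with untreated replicate 3 just above the highest iRFA library. The means were 86.1 ± 12.6 and 70.0 ± 3.75 FPKM (SD, n = 3 each). This was a log2 fold change of -0.29 (SE 0.13, limma adjusted p = 0.25). It was -0.39 (limma adjusted p = 0.0103) without untreated replicate 3 and -0.08 without untreated replicates 1 and 2.

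Mmp16, another membrane-type MMP (chromosome 4, 17852893 to 18119145), was at 0.228, 0.389 and 2.45 FPKM in untreated replicates 1 to 3 and at 2.98, 3.01 and 2.79 FPKM in iRFA replicates 1 to 3. The groups did not overlap, but untreated replicate 3 was far closer to the iRFA libraries than to the other untreated ones. The fit gave a log2 fold change of 1.12 (SE 0.41, limma adjusted p = 0.25), 1.59 (limma adjusted p = 6.9e-05) without untreated replicate 3 and 0.19 without untreated replicates 1 and 2. Mmp23, which is held in the membrane until it is cut free, was at 12.5, 11.8 and 0.895 FPKM in untreated replicates 1 to 3 and at 0.819, 0.565 and 1.93 FPKM in iRFA replicates 1 to 3. Untreated replicate 3 lay inside the iRFA range, and the log2 fold change of -1.77 (SE 0.81, limma adjusted p = 0.25) became -2.70 (limma adjusted p = 4.5e-04) without untreated replicate 3 and 0.10 without untreated replicates 1 and 2. The lipid-anchored Mmp17 and the membrane-type Mmp24 reached 1.10 and 1.21 FPKM in untreated replicates 1 and 2 and stayed at or under 0.0554 FPKM elsewhere. Mmp15 was at 1.29 to 2.28 FPKM and Mmp25 at 0.853 to 2.80 FPKM over all libraries.

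**Figure D3:**
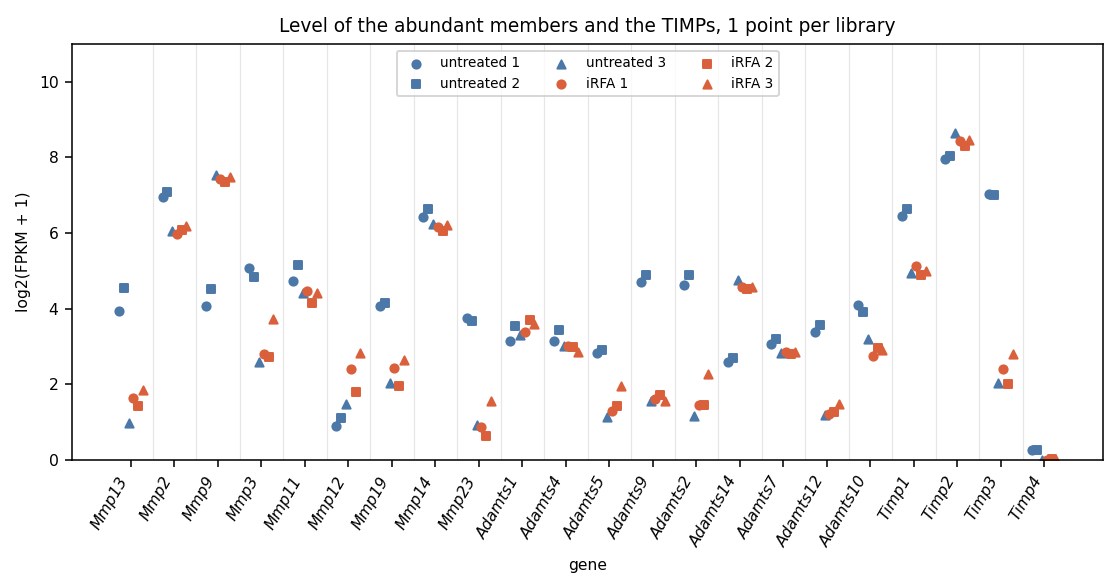
Level of the 21 genes that reached 5 FPKM in some library and of Timp4, as log2(FPKM + 1) with 1 point per library (blue untreated, orange iRFA, marker shape giving the replicate number). In Mmp9, Adamts14 and Timp2 the blue triangle of untreated replicate 3 lies with or above the orange points, and in Mmp13, Mmp23, Adamts9, Adamts2, Adamts12 and Timp3 it lies with or below them.

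Of the ADAMTS proteases that cleave proteoglycans, some were level over the libraries and others differed widely. Adamts1, which cleaves versican and aggrecan, was at 7.93, 10.7 and 8.96 FPKM in untreated replicates 1 to 3 and at 9.49, 12.0 and 11.1 FPKM in iRFA replicates 1 to 3. Adamts4, an aggrecanase, was at 7.85, 9.85 and 7.05 FPKM and at 7.11, 6.89 and 6.26 FPKM in the same order. The groups overlapped in both genes and no library stood far from the others. Adamts1 had a log2 fold change of 0.22 (SE 0.15, limma adjusted p = 0.322), 0.21 (limma adjusted p = 0.27) without untreated replicate 3 and 0.25 without untreated replicates 1 and 2. That of Adamts4 was -0.24 (SE 0.14, limma adjusted p = 0.279), -0.34 (limma adjusted p = 0.0378) and -0.06 in the same order.

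Adamts9, Adamts5 and Adamts15, which also cleave versican or aggrecan, differed widely. Adamts9 (chromosome 6, 92772699 to 92943492) was at 25.1, 28.9 and 1.94 FPKM in untreated replicates 1 to 3 and at 2.07, 2.32 and 1.97 FPKM in iRFA replicates 1 to 3. Adamts5, the main aggrecanase of mouse cartilage, was at 6.10, 6.58 and 1.22 FPKM and at 1.48, 1.71 and 2.89 FPKM in the same order. Untreated replicates 1 and 2 were high in both, and untreated replicate 3 was the lowest library in both. For Adamts9 the log2 fold change was -2.08 (SE 0.91, limma adjusted p = 0.25). It was -3.16 without untreated replicate 3 (limma adjusted p = 8.5e-06, the smallest of the 28 genes) and 0.08 without untreated replicates 1 and 2. Adamts5 had -0.73 (SE 0.52, limma adjusted p = 0.344), -1.31 (limma adjusted p = 0.00253) and 0.42 in the same order. Adamts15 stood at 2.70 and 2.22 FPKM in untreated replicates 1 and 2 and at 0.197 to 0.890 FPKM elsewhere, with log2 fold changes of -0.76 (SE 0.47, limma adjusted p = 0.297), -1.27 (limma adjusted p = 0.0037) and 0.24. The neighbours Adamts1 and Adamts5 lie 53059 bases apart on chromosome 16, yet Adamts1 was level where Adamts5 was not. The substrate versican (Vcan) stood at 7.55 and 8.84 FPKM in untreated replicates 1 and 2 and at 0.717 to 1.43 FPKM in the other 4 libraries, while Acan, Bcan and Ncan, which encode the other proteoglycans of its family, were at or under 0.164 FPKM in every library.

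The procollagen N-proteinases remove the amino-terminal propeptide of fibrillar procollagens, and 2 of the 3 differed between libraries in opposite directions. Adamts2 (chromosome 11, 50602084 to 50807573) was at 23.9, 28.9 and 1.23 FPKM in untreated replicates 1 to 3 and at 1.77, 1.74 and 3.81 FPKM in iRFA replicates 1 to 3. Adamts14 (chromosome 10, 61197112 to 61273438) was at 5.02, 5.52 and 26.0 FPKM in untreated replicates 1 to 3 and at 22.8, 22.1 and 22.7 FPKM in iRFA replicates 1 to 3. Untreated replicate 3 was the lowest library for Adamts2 and the highest for Adamts14. The log2 fold change of Adamts2 was -1.83 (SE 1.03, limma adjusted p = 0.273) with all libraries and 0.57 without untreated replicates 1 and 2. That of Adamts14 was 1.21 (SE 0.59, limma adjusted p = 0.25) with all libraries and -0.20 without untreated replicates 1 and 2. Without untreated replicate 3 the values were -3.04 (limma adjusted p = 3.1e-04) for Adamts2 and 1.91 (limma adjusted p = 1.2e-05) for Adamts14. The remaining family member, Adamts3, stood at 1.05 and 1.10 FPKM in untreated replicates 1 and 2 and at or under 0.00976 FPKM elsewhere.

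Adamts7 and Adamts12 cleave cartilage oligomeric matrix protein. Adamts7 was at 7.38, 8.17 and 6.11 FPKM in untreated replicates 1 to 3 and at 6.27, 5.93 and 6.25 FPKM in iRFA replicates 1 to 3. Adamts12 was at 9.44, 10.9 and 1.27 FPKM and at 1.33, 1.40 and 1.82 FPKM in the same order. The level of Adamts7 was nearly even, while Adamts12 was high in untreated replicates 1 and 2 alone. For Adamts7 the log2 fold change was -0.19 (SE 0.13, limma adjusted p = 0.312), -0.29 (limma adjusted p = 0.0141) without untreated replicate 3 and 0.01 without untreated replicates 1 and 2. Its exons share 122 bases with Tbc1d2b on the other strand. For Adamts12 it was -1.39 (SE 0.65, limma adjusted p = 0.25), -2.15 (limma adjusted p = 5.4e-05) and 0.14 in the same order.

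Adamts10, which binds fibrillin microfibrils (chromosome 17, 33524204 to 33553782), was at 16.1, 14.0 and 8.18 FPKM in untreated replicates 1 to 3 and at 5.68, 6.83 and 6.55 FPKM in iRFA replicates 1 to 3. All untreated values were above all iRFA values, with untreated replicate 3 nearest to them. The means were 12.8 ± 4.10 and 6.35 ± 0.601 FPKM (SD, n = 3 each). Its log2 fold change was -0.86 (SE 0.25, limma adjusted p = 0.25). It was -1.13 (limma adjusted p = 2.9e-04) without untreated replicate 3 and -0.32 without untreated replicates 1 and 2. Here, too, the lack of overlap fixed the sign whichever libraries were left out. Its close paralog Adamts6 was at 1.93 to 3.28 FPKM over all libraries, with overlapping groups. Adamts16 stood at 3.84 and 3.65 FPKM in untreated replicates 1 and 2 and at or under 0.0455 FPKM elsewhere. Adamts8, Adamts17, Adamts18, Adamts19 and Adamts20 were at most at 0.324 FPKM in any library.

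Timp2 was the most abundant TIMP in every library, and Timp1 and Timp3 were abundant in untreated replicates 1 and 2. Timp2 (chromosome 11, 118301069 to 118355740) was at 248, 259.9 and 399 FPKM in untreated replicates 1 to 3 and at 344, 317 and 351 FPKM in iRFA replicates 1 to 3. Timp1 (chromosome X, 20870166 to 20874735), which also binds the proenzyme of Mmp9, was at 86.2, 98.8 and 29.6 FPKM and at 34.2, 28.7 and 31.2 FPKM in the same order. Timp3 (chromosome 10, 86300372 to 86349506) was at 130.0, 128 and 3.08 FPKM in untreated replicates 1 to 3 and at 4.27, 3.05 and 5.94 FPKM in iRFA replicates 1 to 3. In each of the 3 genes untreated replicate 3 lay within the iRFA range or, for Timp2, above it, so the groups overlapped.

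The log2 fold change of Timp3 was -2.95 (SE 1.40, limma adjusted p = 0.25), the most negative of the 28 genes. It was -4.62 (limma adjusted p = 3.8e-05) without untreated replicate 3 and 0.38 without untreated replicates 1 and 2. Timp1 had -0.99 (SE 0.46, limma adjusted p = 0.25), -1.53 (limma adjusted p = 9.7e-05) and 0.08 in the same order. Timp2 had 0.19 (SE 0.20, limma adjusted p = 0.514), 0.41 (limma adjusted p = 0.00311) and -0.24. Timp4, an inhibitor best known from heart, stood at 0.210 and 0.200 FPKM in untreated replicates 1 and 2 and at or under 0.0222 FPKM elsewhere. The gene of Timp3 lies inside Syn3 on the other strand and shares 1733 exon bases with it, but Syn3 was at or under 0.0649 FPKM in every library.

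The summed MMP and TIMP levels varied less than their makeup. The MMP genes summed to 337, 381 and 362 FPKM in untreated replicates 1 to 3 and to 351, 332 and 379 FPKM in iRFA replicates 1 to 3. The TIMP genes summed to 464, 487 and 431 FPKM and to 382, 349 and 388 FPKM in the same order. The ADAMTS genes summed to 119 and 133 FPKM in untreated replicates 1 and 2 and to 60.4 to 67.7 FPKM in the other 4 libraries. The MMP sums of the groups overlapped, all untreated TIMP sums were above all iRFA ones, and the ADAMTS sum of untreated replicate 3 lay among those of the iRFA libraries. Within the MMP sum, Mmp2 led in untreated replicates 1 and 2 with 36.8% and 35.3%, and Mmp9 led in the other 4 libraries with 46.9% to 51.1%, against 4.69% and 5.74% in untreated replicates 1 and 2. Mmp14 held 19.3% to 26% in every library. Adamts9 and Adamts2 together led the ADAMTS sum in untreated replicates 1 and 2, and Adamts14 led it elsewhere with 33.5% to 40.2%. Timp2 made up 53.4% of the TIMP sum in both untreated replicates 1 and 2 and 89.9% to 92.4% in the other 4 libraries, where Timp3 made up at most 1.53%.

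**Figure D4:**
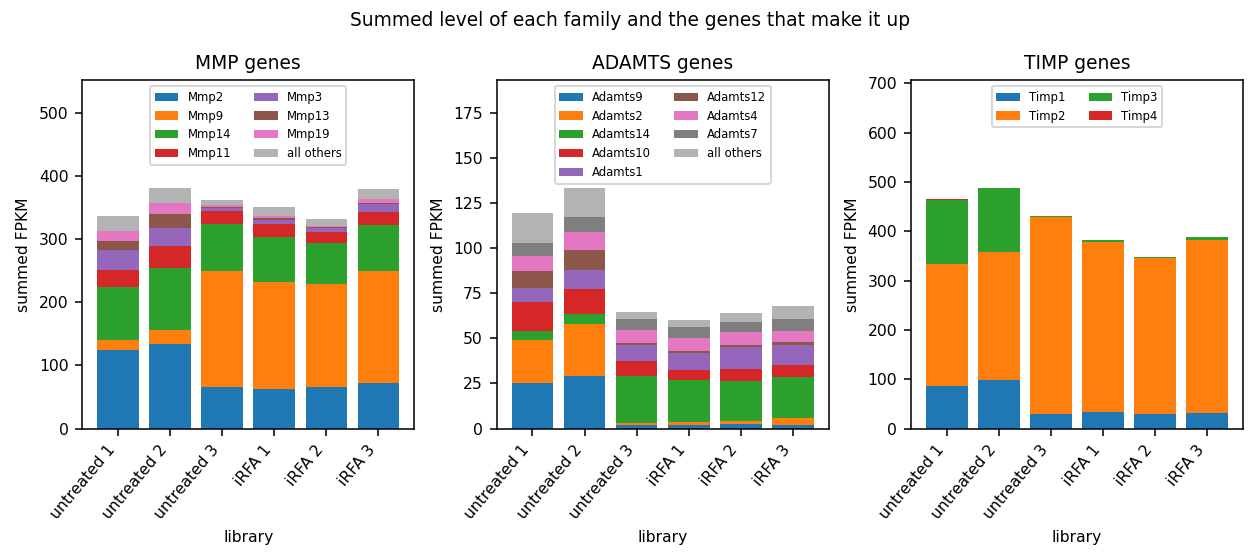
Summed FPKM of the MMP, ADAMTS and TIMP genes in each library, with coloured segments for the leading genes of each family and grey for all others (axes start at 0, and each panel has its own scale). Total MMP height varies little (332 to 381 FPKM) while its main segment passes from Mmp2 in untreated replicates 1 and 2 to Mmp9 in the other 4 libraries.

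The balance of protease to inhibitor transcripts was taken within each library, where a scaling of the library cancels. It compares transcripts, not protein or activity, and was not tested. The MMP to TIMP ratio was 0.726, 0.782 and 0.839 in untreated replicates 1 to 3 and 0.918, 0.952 and 0.978 in iRFA replicates 1 to 3. TIMP transcripts thus exceeded MMP transcripts in all 6 libraries, and every iRFA library was closer to parity than every untreated library. On the log2 scale the untreated mean was -0.36 ± 0.10 and the iRFA mean -0.08 ± 0.05 (SD, n = 3 each), a difference of 0.28. With Mmp9 left out of the sum the log2 ratio was -0.53, -0.44 and -1.28 in untreated replicates 1 to 3 and -1.08, -1.04 and -0.94 in iRFA replicates 1 to 3, a difference of -0.27. With Timp2 left out the difference was 1.69, and from the mean of log2(FPKM + 1) in place of the sums it was 0.75. It was 0.33 without untreated replicate 3 and 0.18 without untreated replicates 1 and 2.

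The ADAMTS to TIMP ratio was 0.257, 0.273 and 0.150 in untreated replicates 1 to 3 and 0.158, 0.184 and 0.175 in iRFA replicates 1 to 3. The groups overlapped, and the difference of the log2 means was -0.35 with all libraries. It was -0.19 without untreated replicate 2, -0.63 without untreated replicate 3 and 0.20 without untreated replicates 1 and 2. It also turned positive with Timp2 left out (1.06) and from the mean of log2(FPKM + 1) (0.48). Single pairs of a protease and an inhibitor known to bind it separated untreated replicates 1 and 2 from the rest more widely. The ratio of Mmp9 to Timp1 was 0.183 and 0.221 in untreated replicates 1 and 2 and 4.98 to 6.25 in the other 4 libraries, so that the gene in excess was a different one. That of Adamts1 to Timp3 was 0.0610 and 0.0840 against 1.87 to 3.95, which also crossed parity. The ratio of Mmp2 to Timp2 was 0.501 and 0.517 against 0.163 to 0.210, and that of Mmp14 to Timp2 was 0.343 and 0.381 against 0.186 to 0.209, with Timp2 in excess everywhere. In none of these 4 ratios did all iRFA values lie on 1 side of all untreated values.

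**Figure D5:**
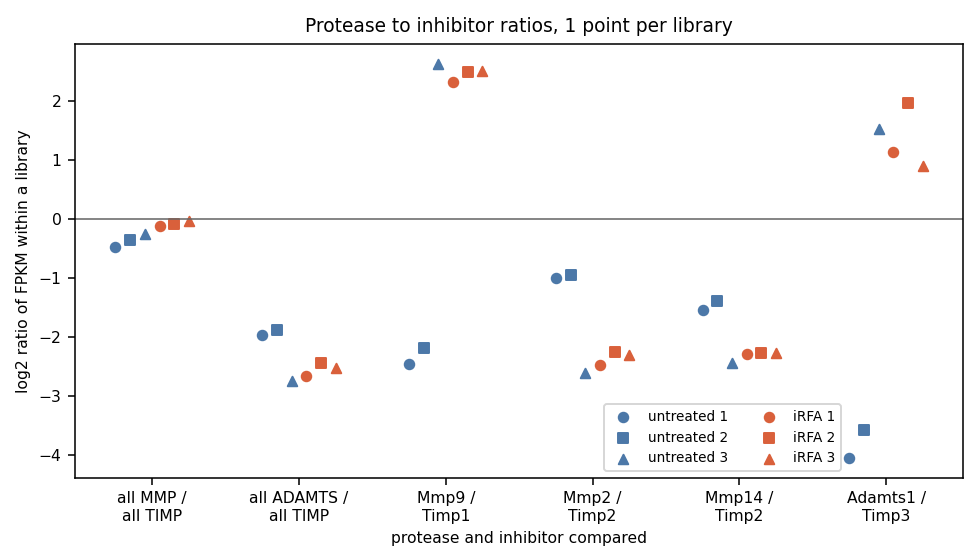
Log2 ratio of protease to inhibitor FPKM within each library for the summed families and 4 single pairs, with 1 point per library (blue untreated, orange iRFA, marker shape giving the replicate number) and a line at 0 for equal levels. Only in the first ratio do all orange points (-0.12 to -0.03) lie above all blue points (-0.46 to -0.25); in the single pairs the blue triangle of untreated replicate 3 lies among or next to the orange points.

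Genes that act on these proteases were described from lists chosen by role. Their counts without untreated replicate 3 stand beside 33.9% of all tested genes called higher and 30.3% called lower in that comparison. Of 6 tested genes of plasminogen and furin activation, the log2 fold change was positive in 2 and negative in 4 (median -0.21). Of these, 0 were called with all libraries, and 2 were called higher and 3 lower without untreated replicate 3. Plau, the urokinase that activates plasminogen, was at 11.5, 12.9 and 24.2 FPKM in untreated replicates 1 to 3 and at 23.3, 25.7 and 22.4 FPKM in iRFA replicates 1 to 3. Plat, the tissue-type activator, went the other way, with 29.0, 28.4 and 6.53 FPKM and then 5.54, 4.17 and 5.60 FPKM. Furin was even at 19.3 to 22.3 FPKM. Pcsk5 and Pcsk6, in the same list, were not even. Pcsk5 stood at 4.93 and 6.29 FPKM in untreated replicates 1 and 2 and at 0.319 to 0.917 FPKM elsewhere. Pcsk6 was at 1.10 and 1.13 FPKM against 0.303 to 0.611 FPKM. Untreated replicates 1 and 2 thus held more Plat than Plau and the other 4 libraries more Plau than Plat.

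All 8 tested genes of other inhibitors and clearance had a negative log2 fold change (median -0.45). Of these, 0 were called with all libraries and 6 were called lower without untreated replicate 3. In the latter comparison 30.3% of all tested genes were called lower and 33.9% higher. Thbs2, a matricellular protein that carries MMPs to uptake, stood at 157 and 246 FPKM in untreated replicates 1 and 2 and at 67.4 to 81.1 FPKM elsewhere. Lrp1, the receptor that takes up MMPs and their complexes, was at 94.6 and 95.9 FPKM against 55.9 to 59.5 FPKM. Thbs1, a relative of Thbs2, was at 92.7 and 119 FPKM against 6.61 to 15.7 FPKM. Of 6 cell surface partners, the log2 fold change was positive in 3 and negative in 3 (median -0.03). Of these, 0 were called with all libraries, and 3 were called higher and 2 lower without untreated replicate 3. Bsg, the most abundant of these partners, was at 212, 300.5 and 258 FPKM in untreated replicates 1 to 3. It was at 152, 243 and 154 FPKM in iRFA replicates 1 to 3 and did not set untreated replicates 1 and 2 apart. Cd44, which docks Mmp9 at the cell surface, stood at 23.0 and 20.3 FPKM in untreated replicates 1 and 2 and at 38.0 to 44.2 FPKM elsewhere.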

How the data were processed

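RNA from untreated and iRFA-treated CT26 tumors was sequenced in 3 libraries per group. The submitters' processing notes name FastQC, HISAT2, StringTie and the build GRCm38, and the authors deposited 1 FPKM value per gene and library. Versions and strand settings are not given in the sources used here. The labels name Trizol and the methods a purification kit for extraction. Gene symbols and positions came from GENCODE M21 (GRCm38). Groups followed the labels. Genes whose mean over the libraries reached 0.5 FPKM (15560) were tested on log2(FPKM + 1). The test was that of limma 3.58.1 (R 4.3.3), two-sided and with a variance trend, and the Benjamini-Hochberg adjustment at 0.05 ran over all of them. Fold changes on this scale understate those of low genes. Genes that reached 5 FPKM in any library and the TIMP genes were given for every library, with others by range, and up to 3 of highest mean per partner list. Any other gene was named after its values were seen. Members and lists were chosen with earlier results of these data known. Alternatives were a pseudocount of 0.1, no filter or one at 1 FPKM, median-of-ratios scaling, equal library sums (1000000), quantile normalization, a replicate block, no variance trend, and libraries left out. Exons shared with other genes, and paralogs, may share reads.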

Additional observations from a re-analysis of the deposited data

How the results depend on the processing

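With each library left out in turn, the genes called higher numbered 0 to 5 and those called lower 0 to 20, and the genes without overlap 2 to 5 on the higher and 2 to 20 on the lower side, with the highest counts without untreated replicate 3 (without iRFA replicate 1, 4 genes were higher without overlap). Quantile normalization left 1 gene lower without overlap. At 5 FPKM or more, 12 genes were expressed in untreated replicate 3 and 12, 12 and 15 in iRFA replicates 1 to 3. The MMP to TIMP difference was 0.18 without untreated replicates 1 and 2, -0.27 without Mmp9, 1.69 without Timp2 and 0.75 from the mean of log2(FPKM + 1). The ADAMTS to TIMP difference ran from -0.63 to -0.19 with single libraries left out and became 0.20, 1.06 and 0.48 without untreated replicates 1 and 2, without Timp2 and from that mean. Without untreated replicates 1 and 2, the log2 fold change took the opposite sign in 15 of the 21 tested genes given per library: Mmp13 0.67, Mmp2 0.04, Mmp9 -0.12, Mmp3 0.48, Mmp19 0.32, Mmp23 0.10, Adamts5 0.42, Adamts9 0.08, Adamts2 0.57, Adamts14 -0.20, Adamts7 0.01, Adamts12 0.14, Timp1 0.08, Timp2 -0.24 and Timp3 0.38. Several of these values were close to 0, as for Mmp2, Adamts7, Adamts9 and Timp1, and no direction can be read from them. Without untreated replicate 3, 20 of the 21 passed the threshold of limma. Under the other alternatives all 21 kept their direction and 0 passed. Same-number deviations from the group means correlated at -0.09439, -0.10519 and -0.23047. The untreated deviations mostly hold the gap between untreated replicates 1 and 2 and untreated replicate 3. These correlations therefore cannot show whether the replicate numbers pair the libraries. In the fit with a replicate block, 0 genes were called higher and 0 lower, and the smallest adjusted p from limma was 0.339. What sets untreated replicates 1 and 2 apart was not tested. FPKM hold no counts, so levels near 0 have no counting interval.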

Other observations

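Several relatives of these proteases also set untreated replicates 1 and 2 apart. The counts below without untreated replicate 3 stand beside 33.9% of all tested genes called higher and 30.3% called lower in that comparison. Of 8 tested membrane ADAM proteases, which shed proteins from the cell surface, 0 were called with all libraries by limma, and 3 were called higher and 3 lower without untreated replicate 3. Adam17, which sheds tumor necrosis factor and is inhibited by Timp3, stood at 15.8 and 17.0 FPKM in untreated replicates 1 and 2 and at 39.7 to 40.6 FPKM in the other 4 libraries. Adam10 was at 82.1 and 80.7 FPKM against 28.5 to 47.4 FPKM, and Adam9 was even at 46.1 to 56.5 FPKM. Of the 4 tested ADAMTS-like proteins, which lack a protease domain, Adamtsl4 stood at 5.55 and 5.08 FPKM in untreated replicates 1 and 2 and at 18.7 to 26.7 FPKM elsewhere. Of these, 0 were called with all libraries, and 3 were called higher and 1 lower without untreated replicate 3. In the fibrillar collagen and fibronectin list, 1 of 5 tested genes had a positive log2 fold change, namely Fn1, at 233 and 225 FPKM against 297 to 454 FPKM. Endothelial markers summed to 29.4 to 39.8 FPKM in every library, but single markers differed in opposite directions. Kdr stood at 7.53 and 7.98 FPKM in untreated replicates 1 and 2 and at 3.43 to 3.66 FPKM elsewhere. Cdh5 was at 7.99 and 8.85 FPKM against 11.4 to 16.0 FPKM. Of the 6 endothelial markers, 0 were called with all libraries, and 2 were called higher and 2 lower without untreated replicate 3. Skeletal muscle markers summed to 168 and 207 FPKM in untreated replicates 1 and 2, to 0.634 FPKM in untreated replicate 3 and to 29.2 to 51.4 FPKM after iRFA.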
